A study of Mus musculus with 4 samples.

Results

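The miR-23, miR-27 and miR-24 microRNAs (miRNAs) were followed in MC3T3-E1, an osteoblast-like line that was cloned from mouse calvaria. The members were the 7 array probes named mmu-miR-23a-3p, mmu-miR-23b-3p, mmu-miR-27a-3p, mmu-miR-27b-3p, mmu-miR-24-3p, mmu-miR-24-1-5p and mmu-miR-24-2-5p, out of 1898 miRNA probes used, and are written below without the species prefix. They were chosen by name, as the products of a pair of clusters linked to TGF-beta signalling in osteoblasts, and all 7 were found. The series asks about miRNAs between the Wnt and TGF-beta pathways. Total RNA came from cells in proliferation medium in which a recombinant adenovirus drove overexpression of Wnt4, of Wnt3a, of Wnt5a or, as the control, of GFP. There was 1 array and 1 spot per probe for each group, so no difference below has a replicate check and no p-value was computed. All 4 groups carry the virus, and no uninfected cells were analysed here. No label names the promoter of the vector, and a miRNA array does not measure the Wnt transcripts themselves.

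A miRNA is cut from a hairpin precursor whose strands, or arms, are named 5p and 3p. One arm is usually kept as the mature miRNA and guides silencing of messenger RNAs that pair with its seed, bases 2 to 8. In the miR-23a cluster and in its paralogue, the miR-23b cluster, the hairpins of a miR-23, a miR-27 and a miR-24 lie in a row and are made from a shared primary transcript. In osteoblasts the miR-23a cluster is known as a brake on differentiation: miR-23a targets Runx2, the master transcription factor of bone formation, and Runx2 in turn represses the cluster. TGF-beta has been reported to induce this cluster in several cell types. The beta-catenin branch of Wnt signalling promotes osteoblast formation.

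The mature sequences are shown because they set which probes report on one locus and which cannot. They are from RefSeq on GRCm38.p6, 5′ to 3′, with the seed in capitals, and 6 of the 7 members were matched by name.
miR-23a-3p: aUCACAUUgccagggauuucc
miR-27a-3p: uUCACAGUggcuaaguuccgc
miR-27b-3p: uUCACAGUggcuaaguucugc
miR-24-3p: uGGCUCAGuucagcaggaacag
miR-24-1-5p: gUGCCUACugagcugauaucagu
miR-24-2-5p: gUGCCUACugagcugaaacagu
The order in the miR-23a cluster is Mir23a, Mir27a, Mir24-2 at chr8:84208518-84208921, plus strand, a stretch of 404 bases between the protein-coding genes Nanos3 and Zswim4 with no RefSeq gene spanning it. The miR-23b cluster runs Mir23b, Mir27b, Mir24-1 at chr13:63300484-63301275, plus strand, over 792 bases inside the gene Aopep. Positions are counted from 1 at the 5′ end. miR-27a-3p and miR-27b-3p are alike at 20 of 21 positions and differ by the substitution C19U outside the seed. miR-24-3p is identical from both loci, so its probe reports their sum. The 5p arms of the miR-24 hairpins share their first 16 bases, hence the seed UGCCUAC, and then diverge. How far a probe also binds the other copy was not tested. Among array probes with a matched sequence, miR-6410 was the only other one with a member's seed, GGCUCAG of miR-24-3p, that was detected on all 4 arrays.

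A probe was called detected when its spot median, in scanner intensity units, was more than 2 SD above the blank mean of that array, both taken over the middle 95% of its blank spots. These limits were 86.8 units on the Wnt4 array, 81.7 on Wnt3a, 111 on Wnt5a and 104 on GFP, and 549, 1067, 502 and 617 of 1898 probes were detected in the same order. Background-corrected log2 signals of 5 bright control probes, averaged over replicate spots, differed from GFP by a mean of -0.16 on Wnt4, -0.08 on Wnt3a and -0.10 on Wnt5a. The mesenchymal markers miR-199a-5p, miR-214-3p, miR-143-3p and miR-145a-5p were detected on all 4 arrays, with a median over the 4 of 1133 units with Wnt4, 1547 with Wnt3a and 1238 with Wnt5a, against 1315 with GFP. Of 23 marker probes of endothelial, blood, muscle, neural, liver, epithelial and pluripotent cells, 3 were detected with Wnt4, 13 with Wnt3a and 3 with Wnt5a, against 6 with GFP, and the brightest signal was 134 units, for miR-206-3p on the GFP array.

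All 7 members were detected on every array, but in separate ranges. The 3p members stood 20.5 to 51.0 times above their array's limit, and the miR-24 5p members only 1.21 to 1.95 times. Probes differ in how well they bind, so a ratio of 2 probes does not give the proportion of their miRNAs.

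**Figure D1:**
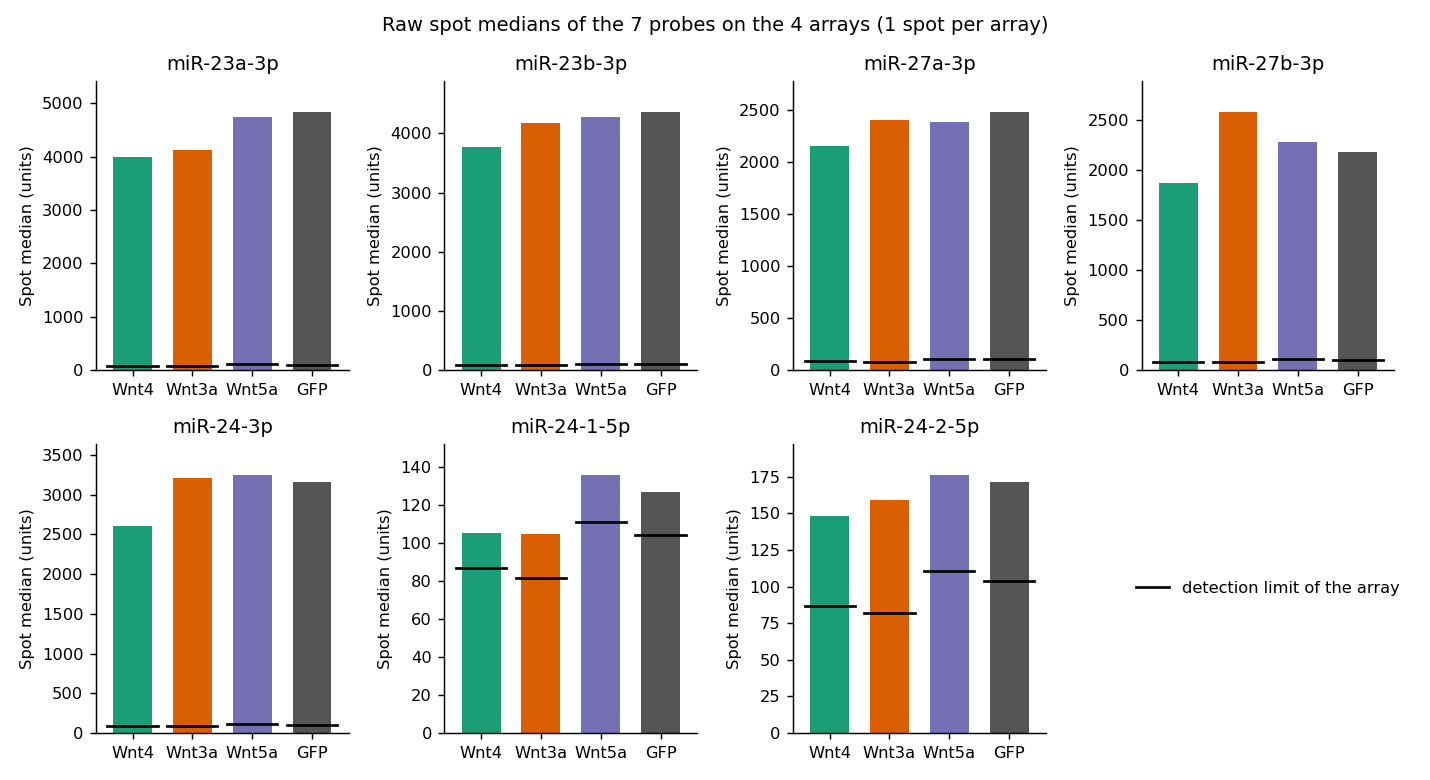
Raw spot medians (intensity units, vertical axes from 0) of the 7 members on the Wnt4, Wnt3a, Wnt5a and GFP arrays, 1 spot each; black lines mark each array's detection limit. The 5 members of the 3p arm lie far above the limits, miR-24-1-5p and miR-24-2-5p close to them, and miR-27b-3p is brightest on the Wnt3a array.

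miR-23a-3p, the Runx2-targeting product that leads the miR-23a cluster, gave 3990.1 units with Wnt4, 4119.5 with Wnt3a and 4737 with Wnt5a, against 4838 with GFP. Its counterpart miR-23b-3p gave 3773, 4169 and 4281 units on the same arrays, against 4359.8 with GFP. The raw signals of both were highest on the GFP array and lowest on the Wnt4 array, and their highest value was 1.21 and 1.16 times the lowest.

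miR-27a-3p, a regulator of osteoblast and fat cell differentiation, gave 2155 units with Wnt4, 2405 with Wnt3a and 2389 with Wnt5a, against 2485 with GFP. miR-27b-3p gave 1874, 2581 and 2279 units, against 2177 with GFP. It had the widest raw span of the members, 1.38 times, with Wnt3a at the top and Wnt4 at the bottom. miR-24-3p, a broadly expressed miRNA linked to cell cycle control, gave 2603 units with Wnt4, 3209 with Wnt3a and 3253 with Wnt5a, against 3161 with GFP.

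The arms opposite miR-24-3p are the only members that separate its loci. miR-24-1-5p, from the miR-23b cluster, gave 105.1 units with Wnt4, 104.7 with Wnt3a and 135.7 with Wnt5a, against 126.5 with GFP. miR-24-2-5p, from the miR-23a cluster, gave 148, 159 and 176 units, against 172 with GFP. The blank mean itself was 74.4 units with Wnt4, 72.8 with Wnt3a and 96.9 with Wnt5a, against 90.8 with GFP, so these raw values move with the blanks: above the blank mean miR-24-2-5p stood at 73.8, 86.5 and 79.6 units, against 81.0 with GFP.

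For comparison between arrays the spot medians were background-corrected, quantile-normalized and put on the log2 scale. The error given is a spot-noise standard error (SE) from control probes with 8 replicate spots per array at similar brightness. It covers neither hybridisation nor cultures. For differences between 2 arrays it was 0.12 to 0.18 for 3p members and 0.11 to 0.15 for the 5p members.

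Wnt3a was set against GFP to see which miRNAs differ with the ligand that activates beta-catenin. None of the 7 members was at least 1.5-fold different, where 3.76% of 612 miRNAs detected on both arrays were. miR-27b-3p differed most, at 11.33 with Wnt3a and 10.99 with GFP, a log2 difference of 0.35 (SE 0.12) or 1.27-fold. It was higher than 94.3% of the miRNAs detected on both arrays, so it lay inside their middle 95%, which ran from -0.55 to 0.46. miR-23b-3p differed by 0.25 (SE 0.12), miR-23a-3p by 0.16 (SE 0.12) and miR-24-3p by 0.11 (SE 0.12). These signs rested on the scaling: under the 12 alternatives miR-23a-3p was below 0 in 6, down to -0.42, miR-23b-3p in 4, down to -0.25, and miR-24-3p in 2, down to -0.16. miR-27a-3p was at 0.00 (SE 0.12), as quantile normalization gave it the same rank, and so the same value, on both arrays. The 5p arms lay below 0, miR-24-1-5p at -0.19 (SE 0.12) and miR-24-2-5p at -0.06 (SE 0.12). They stayed below 0 in 11 and 10 of the 12 alternatives, several of which share the quantile step. Scaled on the bright control probes, miR-24-2-5p was at 0.06. Its signal above the blank mean was also higher with Wnt3a, at 86.5 units, than with GFP, at 81.0. The median of the members was 0.11, against 0.00 for all detected miRNAs. The sign of this median also depended on the scaling: it was at -0.05 when arrays were scaled to the median, at -0.11 with the upper quartile, and at -0.04 without normalization between arrays.

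With Wnt4, whose signalling has been linked to both branches of the pathway, no member was 1.5-fold different from GFP, where 0.772% of 518 miRNAs were. The differences ran from 0.00 for miR-24-3p to 0.10 (SE 0.13) for miR-24-2-5p, all within 1 SE of 0. Their median was 0.06, against 0.01 for all detected miRNAs. Left unnormalized between arrays it was at -0.20, beside -0.17 for all detected miRNAs, and it was at -0.10 scaled to the median, at -0.08 with the upper quartile and at -0.05 scaled on the bright control probes. The slope between the first and second scanner gain, per the file headers, was 0.271 on the Wnt4 array and 0.303 to 0.304 on the others. Its part in the lower raw Wnt4 signals was not tested.

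With Wnt5a, best known for signalling without beta-catenin, no member was 1.5-fold different from GFP, where 0.203% of 493 miRNAs were. The highest difference was that of miR-24-1-5p, 0.14 (SE 0.15), and the next that of miR-27b-3p, 0.13 (SE 0.16). The others lay between 0.00 and 0.12, and all 7 within 1 SE of 0. The median of the members was 0.07, against 0.00 for all detected miRNAs, but it was -0.53 in the deposited table, beside -0.59 for all listed miRNAs.

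**Figure D2:**
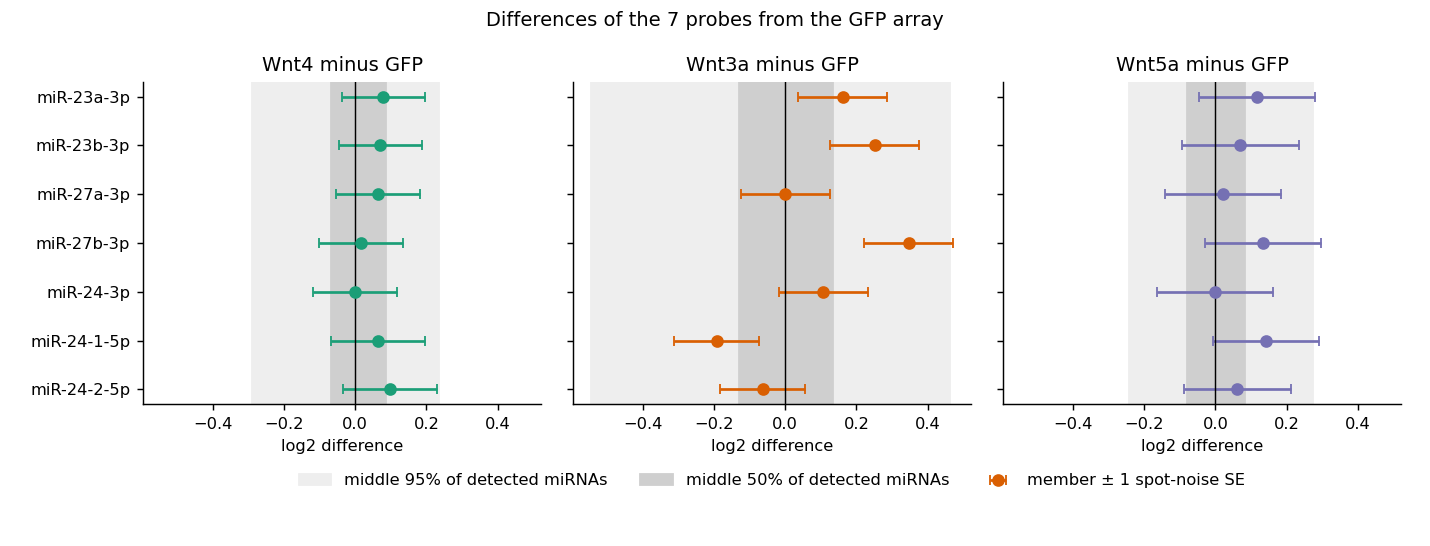
Log2 differences (horizontal axes) of the 7 members from the GFP array on the Wnt4, Wnt3a and Wnt5a arrays, with bars of 1 spot-noise SE; dark and light grey show the middle 50% and 95% of miRNAs detected on both arrays. Every member lies inside the light band, and miR-27b-3p with Wnt3a, at 0.35, lies farthest from 0.

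The Wnt arrays were also set against each other, each being the same array as above. None of the members was 1.5-fold different between Wnt3a and Wnt5a, Wnt3a and Wnt4, or Wnt5a and Wnt4, where 4.19%, 5.13% and 0.821% of detected miRNAs were. With the blank mean subtracted before quantile normalization, 1 member was, for Wnt3a minus Wnt5a and Wnt3a minus Wnt4, miR-24-1-5p at -1.14 and -0.92. In the deposited table, whose scale is described below, all 7 were in both. Above the blank mean, before that normalization, miR-24-1-5p stood at 31.9 units with Wnt3a, 30.6 with Wnt4 and 38.8 with Wnt5a. The value of -0.92 thus has the opposite sign to the signal before normalization. miR-27b-3p was at 0.21 (SE 0.18) for Wnt3a minus Wnt5a and at 0.33 (SE 0.14) for Wnt3a minus Wnt4. miR-24-1-5p lay on the other side, at -0.34 (SE 0.13) and -0.26 (SE 0.11). The value of -0.26 also has the opposite sign to the signal above the blank mean, 31.9 units with Wnt3a and 30.6 with Wnt4. The raw signals of this probe were 104.7 units with Wnt3a and 105.1 with Wnt4. For Wnt5a minus Wnt4 the members ran from -0.04 to 0.12, all within 1 SE of 0.

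Ordered from high to low by quantile-normalized log2 level, miR-27b-3p stood at 11.33 with Wnt3a, at 11.12 with Wnt5a, and then with Wnt4 and GFP, which differed by 0.017. Only the step between Wnt3a and Wnt5a was larger than its SE. miR-23b-3p stood at 12.19 with Wnt3a, at 12.01 with Wnt5a and Wnt4 and at 11.94 with GFP. The step between Wnt3a and Wnt4 was 1.29 times its SE. This order is that of quantile normalization: Wnt3a minus Wnt5a was below 0 for miR-23b-3p in 5 of 12 alternatives, down to -0.32, Wnt3a minus Wnt4 in 2, down to -0.36, and the raw signal was highest with GFP. For miR-27b-3p both were above 0 in 11 of 12, the deposited table with its shifted scale included, and above the median of all miRNAs in 10. For miR-24-1-5p the order was Wnt5a at 6.83, Wnt4 at 6.75, GFP at 6.69 and Wnt3a at 6.50, and the step between GFP and Wnt3a was larger than 1 SE. The signal of this dim probe above the blank mean had another order. It was 38.8 units with Wnt5a, 35.7 with GFP, 31.9 with Wnt3a and 30.6 with Wnt4, so the places of Wnt4 and Wnt3a depended on the processing. For miR-23a-3p, miR-27a-3p, miR-24-3p and miR-24-2-5p no neighbouring levels differed by more than 1 SE.

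Copies of one family from different clusters can be compared within an array, where any single scaling factor drops out. The raw signal of miR-27b-3p was 1.07 times that of miR-27a-3p with Wnt3a, 0.869 times with Wnt4 and 0.954 times with Wnt5a, against 0.876 times with GFP. With 1 spot per probe on each array, and an SE that leaves out hybridisation and cultures, the shifts in such ratios are a description only. On the log2 scale the shift in miR-27b-3p minus miR-27a-3p was 0.35 (SE 0.18) for Wnt3a minus GFP, 0.39 (SE 0.20) for Wnt3a minus Wnt4 and 0.23 (SE 0.26) for Wnt3a minus Wnt5a. For Wnt3a minus GFP it ran from 0.29 to 0.36 over all 14 settings, raw signals minus the blank mean included. The reported value was 1.97 SE from 0. Settings that differ only by a scaling factor or a detection limit give the same shift by construction, so the 14 are not separate checks. For miR-23b-3p minus miR-23a-3p the shift for Wnt3a minus GFP was 0.09 (SE 0.18), with a range of 0.09 to 0.17 over the settings, within 1 SE of 0. For miR-24-1-5p minus miR-24-2-5p it was -0.13 (SE 0.17), also within 1 SE of 0. No shift exceeded 2 SE.

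**Figure D3:**
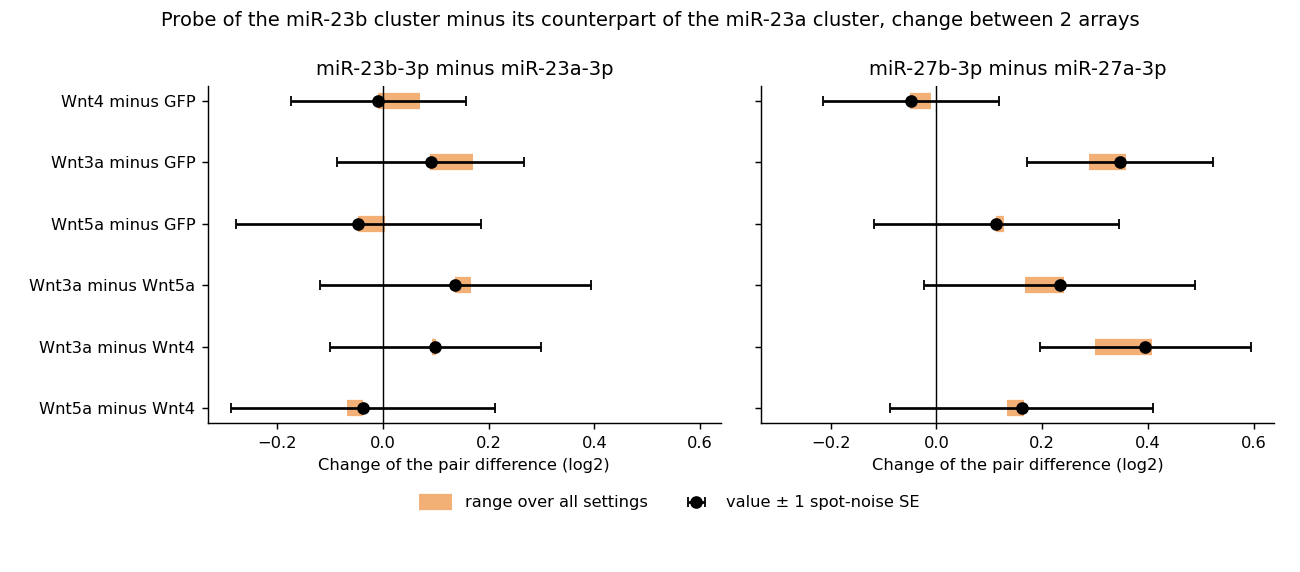
Change between 2 arrays (log2, horizontal axes) in the difference of miR-23b-3p from miR-23a-3p and of miR-27b-3p from miR-27a-3p; points show the reported value with 1 spot-noise SE and orange bars the range over 14 processing settings. Settings that differ only by a scaling factor or a detection limit share a value by construction. The miR-27 error bars lie clear of 0 for Wnt3a minus GFP, at 0.35, and Wnt3a minus Wnt4, at 0.39, and cross 0 in the other comparisons, as does every miR-23 error bar.

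The spots of miR-27b-3p and miR-23b-3p lie side by side, in block 6, columns 9 and 10, row 1, whereas those of miR-27a-3p and miR-23a-3p lie in blocks 28 and 14. The median Wnt3a minus GFP difference of the other detected miRNAs in block 6 was -0.01 over 28 probes, in blocks 28 and 14 -0.01 over 24 and 21 probes. Relative to its own block, miR-27b-3p was at 0.35 and miR-27a-3p at 0.01. For miR-24-1-5p the block value was -0.16, the lowest of the 32 blocks, over 15 probes in block 22, and relative to it the member was at -0.03. miR-24-2-5p was at -0.06 relative to its own block, so that with blocks taken into account miR-24-1-5p was no longer the lower of this pair for Wnt3a minus GFP. For Wnt3a minus Wnt5a miR-24-1-5p stayed the lower relative to blocks, at -0.24 against -0.20. For Wnt3a minus Wnt4 it did not, at -0.11 against -0.38.

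The remaining arms of the hairpins were near the limit. miR-23a-5p, miR-23b-5p, miR-27a-5p and miR-27b-5p, the arms that are usually degraded, were detected on none of the Wnt4, Wnt5a and GFP arrays. With Wnt3a, where the limit was lowest, 3 of them were detected, miR-23a-5p at 86.9 units, miR-23b-5p at 82.8 and miR-27b-5p at 89.0. The GFP signals of these 3, at 99.9, 101 and 96.9 units, were higher but under the GFP limit of 104.

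By likeness, the measure being the root-mean-square distance between level profiles over the 4 arrays, each centred on its own mean, the 5 miRNAs nearest the mean profile of the members were miR-7058-5p, miR-106b-5p, miR-6367, miR-6981-5p and miR-193b-5p, at 0.01 to 0.02 log2 units among 483 miRNAs detected on all arrays. The nearest to miR-27b-3p was miR-714 at 0.03, and the nearest to miR-23b-3p was miR-19b-3p at 0.01, with 0.28 for Wnt3a minus GFP. With 4 arrays such distances are a description only.

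Other miRNAs reported as TGF-beta-responsive lay on both sides of 0 with Wnt3a. Of 46 probes, 15 were detected with both Wnt3a and GFP, with a median of -0.03, and 1 was at least 1.5-fold higher and 0 lower, where 3.76% of all detected miRNAs were that far off either way. That was miR-21a-5p, whose maturation TGF-beta is known to promote, at 12510 units with Wnt3a against 6669 with GFP, or 1.08 on the log2 scale. With Wnt4, 1 of 14 was 1.5-fold higher, again miR-21a-5p at 0.69, and with Wnt5a 0 of 12. Of all detected miRNAs, 0.772% with Wnt4 and 0.203% with Wnt5a were that far off either way. The medians of these TGF-beta-responsive miRNAs were 0.01 in both. The raw signal of miR-21a-5p was almost the same with Wnt4, at 6673 units, as with GFP, at 6669. Its difference of 0.69 with Wnt4 is thus seen in the normalized levels only. Bright members of this list included miR-29a-3p, which targets collagens, at -0.31 with Wnt3a, miR-199a-5p at -0.03 and miR-214-3p at -0.46. miR-143-3p at 0.49 and miR-29b-3p at -0.55, chosen after their values were seen, show the spread behind that median. Among other miRNAs reported to target Runx2, as miR-23a does, 6 of 23 probes were detected with both Wnt3a and GFP and 2 were at least 1.5-fold lower, beside the same 3.76% either way. These were miR-30c-5p, at 1088 units with Wnt3a against 1509 with GFP, and miR-204-5p, at 96.6 units against 161, or -0.62 and -0.74 on the log2 scale. Their log2 differences were 0.09 and 0.10 with Wnt4, and 0.05 and 0.04 with Wnt5a. The Wnt3a signal of miR-204-5p was close to that array's limit of 81.7 units. The other arm, miR-204-3p, lay on the other side with Wnt3a, at 211 units against 185 with GFP, or 0.23. The median of these Runx2 miRNAs was -0.07 with Wnt3a, 0.07 with Wnt4 and 0.02 with Wnt5a.

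The authors' deposited table lists all 7 members on every array on another scale, on which the signal above the blank mean is multiplied by a factor of the array. miR-27b-3p is listed there at 718.5 with Wnt4, 2330.5 with Wnt3a and 622 with Wnt5a, against 844.3 with GFP. The factor was 0.399 for Wnt4, 0.929 for Wnt3a and 0.285 for Wnt5a, against 0.405 for GFP. With it the members had a median of 1.16 for Wnt3a minus GFP, all 7 of them past 1.5-fold, where all listed miRNAs had 1.47. When that table was recentred on the miRNAs it lists throughout, the members had a median of -0.23, with miR-27b-3p at 0.07 and miR-23a-3p at -0.42. miR-27b-3p was above 0 for Wnt3a minus GFP under all 12 alternatives, and above the median of all miRNAs in 10 of them.

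**Figure D4:**
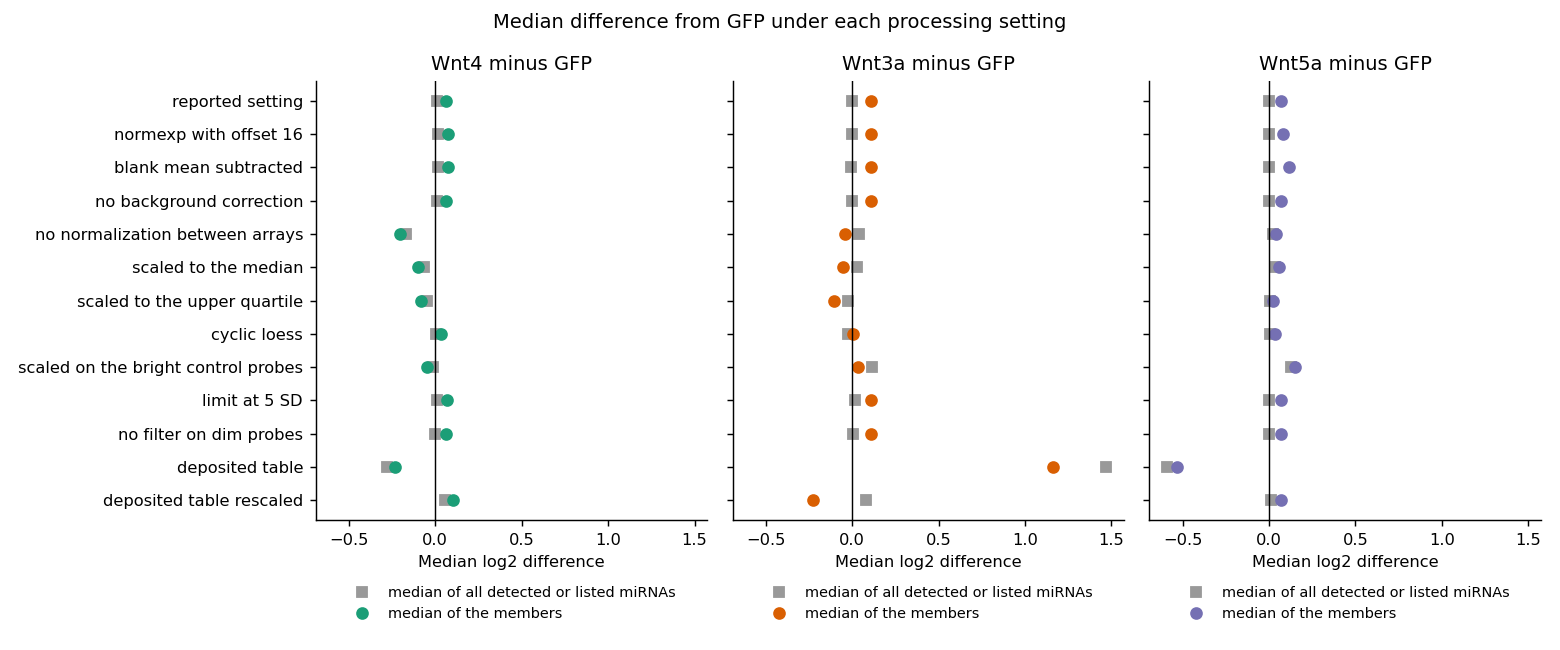
Median log2 difference from GFP (horizontal axes) of the members (circles) and of all detected or listed miRNAs (grey squares) under the reported setting and each alternative (rows). The circles lie on both sides of 0 across settings for each ligand, and in the deposited table with Wnt3a circle and square are shifted to 1.16 and 1.47.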

How the data were processed

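The data were 4 one-colour arrays scanned at 635 nm. The dye was Hy5, from a kit for LNA miRNA arrays, per the labels' protocols. Per the file headers, the deposited scanner files give a raw spot median intensity and a background median for each of 3200 spots, read at 3 gains. No label or header names the array design or the scanner. The authors' deposited table holds processed intensity values, which were found to be the signal above the blank mean multiplied by a factor of the array, with deviations of up to 0.0951 units.

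The background column was not subtracted, since it followed the spot's own signal (Pearson's r of log2 values 0.945 to 0.985). Spot medians were corrected by normexp with an offset of 50 over all spots. Control spots and 2 probes with a bad flag were then left out, and the 1898 miRNA probes were quantile-normalized (limma 3.58.1, R 4.3.3; Python 3.11.15, numpy 2.4.6, pandas 2.3.3, matplotlib 3.10.9). The offset and the dim signal shrink folds. Spot noise was taken from 3 bright control probes for the 3p members and from 1 dim one for the 5p members. With 1 array per group the number of arrays limits the precision and no test was possible. All members were named; of each other list, the 4 probes brightest on GFP and any at least 1.5-fold different could be. The steps were checked on simulated data. Members and lists were chosen with earlier results of these data known, and the comparison of cluster copies and blocks after their values were seen. In all, 12 alternatives were fixed at the start. Some of them share the quantile step or change only the detection limit, so counts over them are not counts of separate checks.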

Additional observations from a re-analysis of the deposited data

How the results depend on the processing

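No paired analysis was possible because each group had 1 array, and no replicate could be left out. A slide or scan block could not be fitted either. With no replicates, a value counted as moved when it shifted by more than 1 spot-noise SE. For Wnt4 minus GFP the members' median of 0.06 became -0.20 without normalization between arrays, -0.10 scaled to the median, -0.082 with the upper quartile and -0.23 in the deposited table, beside -0.28 for all listed miRNAs. For Wnt3a minus GFP the median of 0.11 became -0.041, -0.054 and -0.11 under the same 3 scalings, 1.16 in the deposited table and -0.23 in that table rescaled. For Wnt5a minus GFP the median of 0.07 became -0.53 in the deposited table, beside -0.59 for all. The count of members at least 1.5-fold different with Wnt3a was 0, but 7 in the deposited table. It was 1 with the blank mean subtracted before quantile normalization, miR-24-1-5p at -0.73. Before that normalization this probe stood 31.9 units above the blank mean with Wnt3a and 35.7 with GFP. With scaling on the bright control probes the median of all miRNAs was 0.12 for Wnt3a and 0.13 for Wnt5a. The causes were not tested. Over 501 single values of members under the alternatives in 6 comparisons, 369 stayed within 1 SE. Part of that count was fixed in advance, since alternatives that changed only the detection limit could not move a single value. The 5p members were too close to the limit to size a change, and miR-24-1-5p was not detected with Wnt4 at the stricter limit of 5 SD.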
